A study of Caenorhabditis elegans with 4 samples.

Results

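The centre of chromosome III was taken as the stretch from 4.6 to 9.2 Mb of the WormBase WS180 sequence of Caenorhabditis elegans, and every LIN-15B peak whose midpoint lay in it was a member, with no use made of peak strength or width. This gave 298 peaks of the 809 on chromosome III and of the 4141 in the whole list, or 7.196% of the list. The peaks came from chromatin immunoprecipitation and sequencing (ChIP-seq) of whole hermaphrodites at the L3 larval stage, all of strain OP184 and grown at 20 °C. These worms carried the unc119(ed3) mutation and the transgene wgIs184, which holds unc119 and lin-15B fused to TY1, EGFP and FLAG tags. The strain was made by particle bombardment and outcrossed, so the data describe the tagged product of a transgene in 1 line. The 4 libraries were 2 of input DNA and 2 of DNA recovered with goat anti-GFP antibodies. All 4 carry labels of 2% formaldehyde and 100 mM Tris. They were reduced by the authors to 1 combined list with a position and a q-value per peak, so no value of either replicate exists here, the read depth is unknown and each p-value describes only how peaks are distributed within this list.

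LIN-15B has a THAP domain, a zinc-coordinating DNA-binding fold, and belongs to the synMuv B genes, a group of chromatin regulators named for their redundant role in restraining vulval induction. Loss of synMuv B function is known to let germline genes be expressed in the soma, and LIN-15B is among the members linked to repressive histone methylation at the promoters of such genes. The autosomes of this worm have centres in which recombination is rare and conserved, widely expressed genes are common, and arms that are richer in repeats and in heterochromatin marks. The sections compared here were set by coordinate and not by the limits of such centres and arms. ChIP-seq of a whole larva averages over all its tissues, so a peak does not show in which cells the protein was bound. Which gene lies at each peak was not analysed here, because the gene table supplied is on another assembly, WBcel235.

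Peaks were dense in the centre of chromosome III. The 298 members lay at 64.8 per Mb (95% exact Poisson interval 57.6 to 72.6) and covered 115 kb, or 2.49% of the section. In the whole list there were 41.4 peaks per Mb, covering 1.65% of the chromosomes' spans from first to last peak. The remainder of chromosome III held 511 peaks at 55.9 per Mb (51.1 to 60.9), so that the centre was 1.16 times as dense (95% interval 1.00 to 1.34; exact binomial test, two-sided, Benjamini-Hochberg adjusted over 6 comparisons, p = 0.044). That test treats peaks as independent, and its lower bound was 1.002 before rounding. The call was lost in a quasi-Poisson fit of counts in 100 kb windows, which allows for uneven spread between windows (adjusted p = 0.081), among the strongest 1000 peaks (1.29 times, adjusted exact binomial p = 0.071) and with regions within 1 kb merged (1.14 times, adjusted exact binomial p = 0.088).

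The outer sections of the chromosome were not alike beside the centre. On the left, up to 4.6 Mb, 233 peaks lay at 50.9 per Mb, and the centre was 1.27 times as dense (1.07 to 1.52; exact binomial test, adjusted over the 2 outer sections, p = 0.012; quasi-Poisson adjusted p = 0.051). On the right, from 9.2 Mb, 278 peaks lay at 60.8 per Mb, and the ratio of 1.07 (0.902 to 1.26) was not called (adjusted exact binomial p = 0.45). These comparisons with single outer sections were added after the data had been seen.

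Against the middles of the other autosomes the difference was larger. Each of chromosomes I, II, IV and V was split into 3 sections of equal length between its first and last peak, and the 4 middle sections together held 1023 peaks at 44.7 per Mb (42.0 to 47.6). The centre of III was 1.45 times as dense (1.27 to 1.65, adjusted exact binomial p = 1.7e-07; quasi-Poisson adjusted p = 1.5e-05). The middle of V was the sparsest, with 286 peaks at 41.1 per Mb, and the centre of III exceeded it 1.58-fold (1.34 to 1.86, adjusted exact binomial p = 1.7e-07). The middle of I held 219 peaks at 43.6 per Mb, a ratio of 1.49 (1.24 to 1.78, adjusted exact binomial p = 1.7e-05). That of II held 234 at 46.1 per Mb, a ratio of 1.41 (1.18 to 1.68, adjusted exact binomial p = 0.00014). The densest of the 4 was that of IV with 284 peaks at 48.9 per Mb, a ratio of 1.32 (1.12 to 1.56, adjusted exact binomial p = 0.00099). Each of these single comparisons was also called in the quasi-Poisson fit, with adjusted p between 0.00012 and 0.0024. The left and right sections of III, at 50.9 and 60.8 per Mb, also lay above each of the 4 middles. A density above these middles was thus not particular to the centre of III. The outer sections were not tested against the middles.

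**Figure D1:**
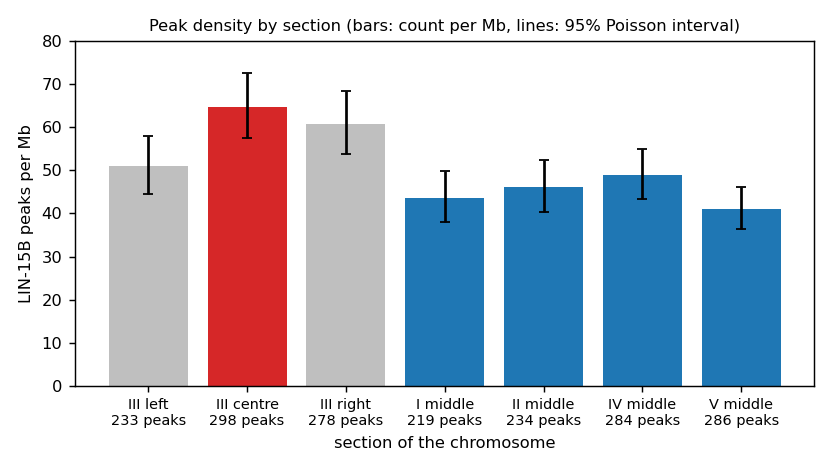
LIN-15B peaks per Mb (vertical axis) in the 3 sections of chromosome III and in the middle sections of I, II, IV and V (horizontal axis); bars are counts per Mb and lines are 95% exact Poisson intervals. The centre of III stands at 64.8 per Mb, the right section of III at 60.8, and the 4 other middles between 41.1 and 48.9.

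Members ranged widely in strength, here -log10 of the authors' q-value, from 2.01 to 126 with a median of 8.78 and quartiles at 3.82 and 20.5. The median of the whole list was 6.30, and 173 of the 298 members (58.1%, 95% exact interval 52.2% to 63.7%) were stronger than that, against 50% of the list (2070 of 4141). A q under 1e-10 was reached by 129 members (43.3%), against 36.1% of the list, and a q under 1e-50 by 26 (8.72%, 5.78% to 12.5%), against 6.54% of the list. Among the strongest 1000 peaks of the list 85 were members, where the members' share of the list would give 72.0. Among the strongest 100 there were 10 (7.20 at that share) and among the strongest 20 there were 2 (1.44 at that share).

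The share of members stronger than the list median was not called different in any of the 6 main comparisons. It was 51.3% in the rest of III (262 of 511), a difference of 6.78 percentage points (95% interval -0.340 to 13.8; Fisher's exact test, two-sided, adjusted over 6 comparisons, p = 0.20). In the pooled middles of the other autosomes it was 53.9% (551 of 1023), a difference of 4.19 points (-2.24 to 10.5, adjusted Fisher's exact p = 0.31). Among single middles, that of I had a higher share than the centre of III (60.3%) and that of IV the lowest (50.4%), and neither difference was called (adjusted Fisher's exact p = 0.65 and 0.20). Comparisons with the single outer sections were added after the data had been seen. In the left section of III 105 of 233 peaks (45.1%) were that strong. The centre was 13.0 points higher than this (4.43 to 21.3, Fisher's exact test, adjusted over the 2 outer sections, p = 0.0076). Against the right section, with 157 of 278 (56.5%), the difference was 1.58 points (-6.46 to 9.60, adjusted Fisher's exact p = 0.74). The median strength was 5.51 on the left and 8.05 on the right, beside 8.78 in the centre.

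Dividing the list into 4 classes of equal size by q showed in which of them the members were most numerous. The weakest class, with strength up to 3.20, held 62 members at 13.5 per Mb, and the next, up to 6.30, held 63 at 13.7 per Mb. The third, up to 15.9, held 83 at 18.0 per Mb, and the strongest held 90 at 19.6 per Mb (95% interval 15.7 to 24.0). In the rest of III the 4 densities were 12.7, 14.5, 13.6 and 15.1 per Mb, so the ratio of centre to rest was 1.06, 0.942, 1.33 and 1.30 from the weakest class to the strongest. In the pooled middles of the other autosomes the densities were 9.84, 10.8, 12.0 and 12.1 per Mb, and the ratios 1.37, 1.27, 1.51 and 1.61. The 95% interval of the ratio in the strongest class was 0.983 to 1.70 against the rest of III and 1.26 to 2.06 against the other middles.

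Taken as 2 sets, the 2070 stronger peaks of the list were 1.31 times as dense in the centre as in the rest of III (1.08 to 1.597, adjusted exact binomial p = 0.0060), and the 2071 weaker ones 0.998 times (0.799 to 1.24, adjusted exact binomial p = 1). The test that compares these ratios is the one on the share of stronger peaks above, which was not called. Against the other middles both sets were denser in the centre of III, 1.56 times for the stronger peaks (adjusted exact binomial p = 2.9e-06) and 1.32 times for the weaker (adjusted exact binomial p = 0.022).

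**Figure D2:**
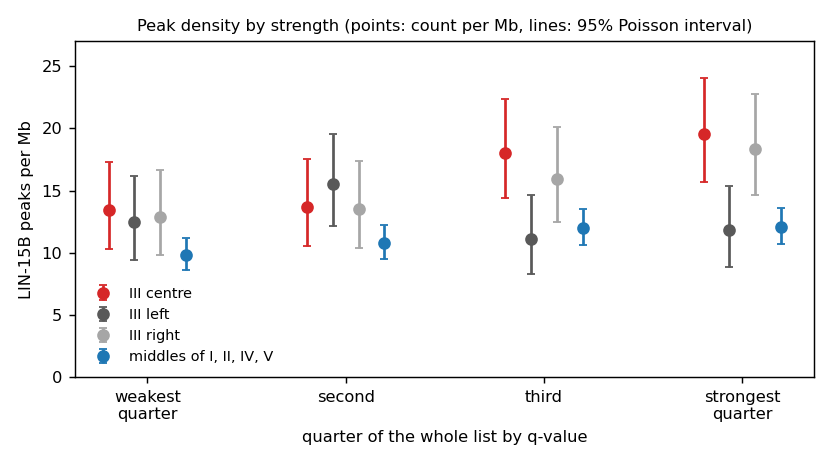
LIN-15B peaks per Mb (vertical axis) in 4 classes of equal size by q-value, weakest to strongest (horizontal axis), with 95% exact Poisson intervals. In the strongest class the centre of III (19.6 per Mb) and the right section (18.4) lie above the left section (11.8) and the pooled middles of I, II, IV and V (12.1).

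The strongest member spanned 7162193 to 7162713 on chromosome III, 521 bp with a strength of 126, and ranked 11 in the whole list. It was followed by 5172415 to 5172882 with 123 (rank 13), 5678856 to 5679338 with 118 (rank 23), 7854368 to 7854846 with 115 (rank 27) and 8903934 to 8904447 with 110 (rank 32). These 5 lay far apart along the section, and each was between 468 and 521 bp wide. The next were 8446840 to 8447311 with 104, 6971789 to 6972247 with 98.7, 8043707 to 8044129 with 87.5, 8416890 to 8417937 with 85.7 and 4899609 to 4900156 with 83.6.

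The other 10 of the 20 strongest had strengths from 58.9 to 76.0 and reached down to rank 203 of the list. They lay at 4756938 to 4757368, 7498255 to 7498745, 8163741 to 8164205, 8358104 to 8358543, 7520579 to 7521016, 8307263 to 8307683, 4754108 to 4754528, 5603497 to 5603985, 8356274 to 8356942 and 7973095 to 7973531. Of the 20, 14 lay in the right part of the centre, from 6.9 Mb, and 6 in the left part. Of all 298 members, 162 lay in the right part and 136 in the left, and the difference was not tested. A pair of them, at 8356274 and 8358104, had midpoints 1.72 kb apart, and a further pair, at 4754108 and 4756938, 2.84 kb apart.

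The placing of the very strong members is given as a description, without a test. Of the 26 with q under 1e-50, 9 lay in the left part and 17 in the right, beside 136 and 162 of all members. None of the 26 lay between the peaks at 5678856 to 5679338 and 6971789 to 6972247, a stretch of 1.29 Mb. That stretch held 70 members at 54.1 per Mb, beside 64.8 per Mb over the section and 68.9 per Mb in its remainder, and 4 of the 5 windows of 100 kb with only 2 members lay in it. Of the 70, 34 (48.6%) were stronger than the list median and the strongest reached 43.4. The median strength there was 5.54. The stretch was chosen for its lack of peaks with q under 1e-50, which by itself limits these strengths. It also leaves all 26 such peaks to the remainder, which raises the density there. The longest stretch without such a peak was 1.59 Mb in the middle of I and 1.37 Mb in that of II, which held 11 such peaks each. It was 1.01 Mb in the middle of IV, with 16 such peaks, and 0.941 Mb in that of V, with 20. In the left and right sections of III, with 22 and 20, it was 0.578 and 0.751 Mb. In these stretches of the other sections the median strength ran from 4.70 (left of III) to 8.16 (middle of I). The share stronger than the list median ran from 41.7% (middle of V) to 60.6% (middle of I). Density in these stretches ran from 25.5 per Mb (middle of V) to 54.6 per Mb (right of III). It was below that of the whole section in each except the middle of I (44.5 beside 43.6 per Mb). No difference between these lengths, medians, shares or densities was tested.

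**Figure D3:**
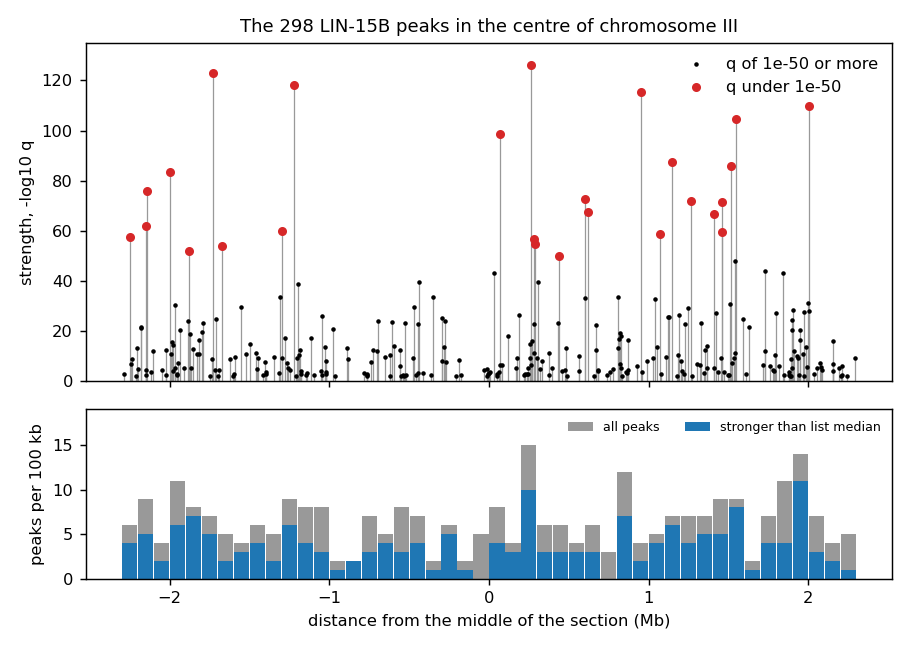
Strength of each of the 298 members (upper panel, -log10 q, 26 with q under 1e-50 in red) and the number of members per 100 kb (lower panel, those stronger than the list median in blue) against the distance from the middle of the section at 6.9 Mb. No red point lies in the 1.29 Mb from 1.22 Mb left of the middle to 0.0720 Mb right of it, while the 100 kb windows wholly inside it hold between 2 and 8 peaks.

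Peaks were present along the whole section. Every one of its 46 windows of 100 kb held at least 2 members, with a median of 6 and a maximum of 15, and the 46 windows of the right section of III likewise included no empty one. In the left section 2 of 46 windows were empty, and in the other middles 7 of 229. The variance of these counts was 1.38 times their mean, beside 1.32 in the rest of III and 1.36 in the other middles. The right part held 162 members at 70.4 per Mb and the left part 136 at 59.1 per Mb, and the ratio of left to right, 0.840 (0.663 to 1.06), was not called (exact binomial test, two-sided, unadjusted p = 0.15). By stretches of 460 kb, density was highest at the right end, from 8.74 to 9.2 Mb, with 39 members at 84.8 per Mb (60.3 to 116), and lowest from 6.44 to 6.9 Mb, with 20 members at 43.5 per Mb (26.6 to 67.1). The stretch next to this lowest one, from 6.9 to 7.36 Mb, held 36 members at 78.3 per Mb.

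The fullest 100 kb window ran from 7100001 to 7200000 and held 15 members. It contained the strongest member of all and 2 more with q under 1e-50, at 7179587 to 7179993 and 7189652 to 7190078, as well as a run of 3 weak peaks between 7140345 and 7142333 with strengths from 3.03 to 5.29. The next, from 8800001 to 8900000, held 14 members with none under 1e-50 and a highest strength of 31.1, yet 11 of the 14 were stronger than the list median. The third, from 7700001 to 7800000, held 12 with a highest strength of 33.5. Full windows were thus of unlike strength, and over the 46 windows the number of members and their median strength had a Spearman correlation of -0.0063, given as a description of this list. The emptiest windows, 5 in a tie, had 2 members each, starting at 5900001, 6000001, 6500001, 6700001 and 8500001.

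Members were 9.50 kb apart at the median, from midpoint to midpoint, against 10.7 kb in the rest of III, 14.2 kb in the other middles and 13.2 kb over the list. Midpoints of 36 of the 297 neighbouring pairs (12.1%, 95% exact interval 8.64% to 16.4%) lay within 2 kb, against 11.0% of pairs in the whole list. This share was 12.0% in the rest of III (adjusted Fisher's exact p = 1) and 10.6% in the other middles (difference 1.52 points, -2.30 to 6.07, adjusted Fisher's exact p = 0.69). A difference in close pairs was therefore not called. This share depends on density as well as on grouping, and no allowance for density was made. Of single middles, that of II had the lowest share, 6.87%, and that of V the highest, 15.1%, and neither differed from the centre of III past the threshold (adjusted Fisher's exact p = 0.33 and 0.67).

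The closest pair was at 9110355 to 9110554 and 9110886 to 9111153, with midpoints 565 bp apart and strengths of 2.58 and 6.05. It was followed by 9053734 to 9054192 with 9054396 to 9055016 (743 bp), 7710875 to 7711263 with 7711466 to 7712200 (764 bp), 7141221 to 7141483 with 7142036 to 7142333 (832.5 bp) and 6887552 to 6887836 with 6888455 to 6888654 (860.5 bp). No members overlapped, and the smallest distance between facing edges was 202 bp. In the 36 close pairs both peaks were stronger than the list median in 14, 1 of them was in 13 and neither in 9. The median strength was 16.2 for the stronger peak of each pair and 4.68 for the weaker. The order of these medians was set by sorting each pair. The split of the pairs was not compared with that of other pairs of peaks.

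Joining members whose midpoints lay within 2 kb gave 24 pairs and 6 groups of 3, and left 232 members single. The strongest group of 3 spanned 8354739 to 8358543, with strengths from 9.27 to 71.7, and the weakest spanned 7140345 to 7142333. With a step of 5 kb the largest groups held 5 members. One of these covered 8794642 to 8802520 in 7.88 kb, had strengths from 5.40 to 28.6 and included 2 of the 5 widest members. The other covered 5706194 to 5722162 in 16.0 kb, with strengths from 2.79 to 38.9.

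Having a close neighbour went with little difference in strength. The 66 members with a peak within 2 kb had a median strength of 9.02 and the 232 others 8.77, and 56.1% and 58.6% of them were stronger than the list median. The 17 members with no peak within 20 kb had a median of 8.27 and ranged from 2.08 to 67.3. Strengths of neighbouring members had a Spearman correlation of 0.099 over 297 pairs, which share peaks with one another. At the other extreme, the longest stretch without a midpoint was 147 kb, between the peaks at 6722222 to 6722516 and 6869249 to 6869595. The next were 96.8 kb between 6019705 to 6020065 and 6116516 to 6116803, and 85.6 kb between 8528821 to 8529211 and 8614433 to 8614728.

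The median width of members was close to that of the list. Widths ran from 20 to 1048 bp with a median of 362.5 bp and quartiles at 304.5 and 426.5 bp, and 143 members (48.0%, 95% exact interval 42.2% to 53.8%) were wider than the list median of 367 bp, against 49.8% of the list. The share was 49.5% in the rest of III (difference -1.52 points, -8.61 to 5.59, adjusted Fisher's exact p = 0.87) and 52.9% in the other middles (difference -4.90 points, -11.3 to 1.54, adjusted Fisher's exact p = 0.33). With the upper quartile of list width as the cut, the difference from the other middles was -5.29 points (-10.3 to 0.310, adjusted Fisher's exact p = 0.20). Among the 2071 weaker peaks, at the median cut, it was -9.47 points (-16.4 to -1.06, adjusted Fisher's exact p = 0.10). Of single middles only that of I was called: 142 of its 219 peaks (64.8%) were wide, and the centre of III lay 16.9 points lower (difference -16.9, interval -25.1 to -8.21, adjusted Fisher's exact p = 0.0010). With I left out of the pooled middles the difference was -1.64 points (adjusted Fisher's exact p = 0.87).

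Stronger members were wider along a narrow band, beside which the broadest members were scattered over a wide range of strengths. Of the 73 members under 300 bp, 4 were stronger than the list median and the strongest reached 9.49. The 185 members from 300 to 500 bp had a median strength of 11.3, with 137 stronger than the list median. Members over 500 bp numbered 40 (13.4%, against 15.7% in the rest of III, 18.7% in the other middles and 17.8% of the list). Their strengths ranged from 2.32 to 126, with a median of 16.6, and 8 of the 40 were no stronger than the list median. Of peaks over 500 bp this held for 156 of 739 in the list and 15 of 80 in the rest of III. In the other middles it held for 42 of 191. For the narrower groups no counts over the list are given here. Width and strength had a Spearman correlation of 0.702 over the 298 members and 0.705 over the 511 peaks in the rest of III. Both come from the same peak call, so this relation is a description of the calls.

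The widest members were 8416890 to 8417937 (1048 bp, strength 85.7), 8801476 to 8802520 (1045 bp, 28.6), 6551185 to 6552202 (1018 bp, 33.8), 8799747 to 8800546 (800 bp, 24.7) and 5162761 to 5163546 (786 bp, 9.13). A single member was narrower than 50 bp, at 7554731 to 7554750, 20 bp wide with a strength of 2.12. The 26 members with q under 1e-50 were all wider than the list median of 367 bp, with a median of 462 bp and a range of 407 to 1048 bp. In the strongest of the 4 classes by q, members had a median width of 427 bp, against 438.5 bp in the rest of III, 445 bp in the other middles and 447 bp over the list.

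**Figure D4:**
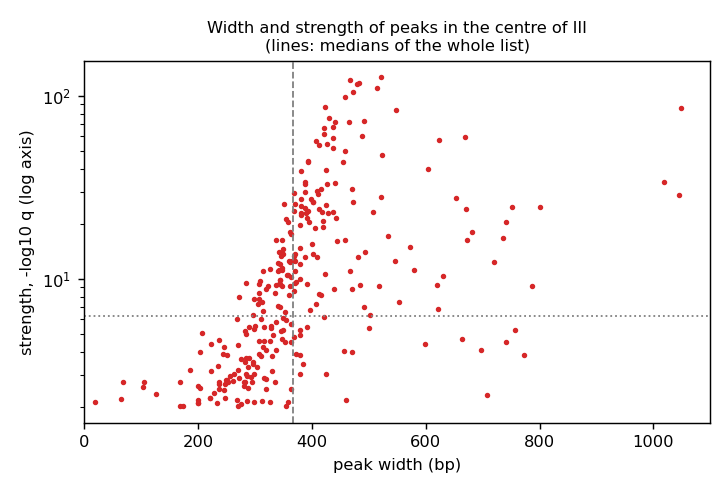
Strength (-log10 q, logarithmic axis) against width in bp for the 298 members; the dashed and dotted lines mark the list medians of 367 bp and 6.30. Most points form a rising band up to about 500 bp, and the 40 broader members are spread between strengths of 2.32 and 126.

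The limits of the section did not fall within a group of peaks. At 4.6 Mb the last peak outside lay at 4587122 to 4587456 (strength 4.78) and the first inside at 4612628 to 4612914 (2.93). At 9.2 Mb the last inside lay at 9190980 to 9191497 (9.19) and the first outside at 9228119 to 9228518 (13.6).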

How the data were processed

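The authors' deposited list, named as combined, was used as it stands; each line names PeakSeq as its source and, per the file headers, coordinates are on WormBase WS180. The deposited value per peak is a q-value, from which strength was computed as -log10 of q. Not given in the sources used here were the aligner, filters, PeakSeq settings and how replicates were merged. No q-values were tied. Since q depends on reads as well as enrichment, strength is not occupancy.

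Python 3.11.15 with scipy 1.17.1 and statsmodels 0.14.6 was used. Densities were compared by two-sided exact binomial tests given both lengths, and shares by Fisher's exact tests, with differences given Newcombe intervals; p-values were adjusted by Benjamini-Hochberg over the rest of III, the pooled middles and 4 single middles. These tests treat peaks as independent, and intervals cover counting error only. Chromosome spans ran from first to last peak. Peaks named by position are the 20 strongest, 5 widest, those under 50 bp, 5 closest pairs, 3 longest gaps, and the 3 fullest and emptiest windows; other peaks named were chosen after their values were seen. The density, strong share and close pair tests, but not the width test, were tried on simulated lists of peaks placed independently at random. Those lists lack the uneven spread between windows seen here, so the trials do not cover it. The section, measures and tests were chosen with earlier results of these data known. No sequence is printed, as no genome of this build was used here.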

Additional observations from a re-analysis of the deposited data

How the results depend on the processing

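Of 54 alternatives, 44 left direction and side of the 0.05 threshold as they were. Of these, 12 were called and 32 not called before and after. Another 5 turned direction, 4 kept direction but were no longer called, and 1 was newly called. Among those that turned, the density of the weaker peaks against the rest of III also lost its call. The excess of the centre over the rest of III (1.16) was not called among the strongest 1000 peaks (1.29), with regions within 1 kb merged (1.14), in the quasi-Poisson fit (1.16) or against the right section only (1.07), and was 0.998 among the 2071 weaker peaks. The excess over the other middles was called under every alternative run (1.32 to 1.57). The share of strong peaks was called against the left section only (13.0 points). Differences called neither before nor after turned direction for close pairs against the rest of III (-1.30 points within 5 kb, -0.650 between facing edges, -0.153 against the right section only) and for wide peaks against the left section only (2.06 points). Single outer sections, the weaker peaks alone and the omission of chromosome I were chosen after seeing the data. The cause of these changes was not tested.

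No paired analysis was possible because the peaks carry no replicate-level values, and for that reason no replicate was left out. Depth is unknown, so a stretch without a peak is one in which nothing passed the authors' threshold, not one shown to be unbound.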
